A study of Mus musculus with 22 samples.

Results

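Promoter and gene body methylation was set against expression in the livers of wild-type mouse fetuses at E14.5 (E, embryonic day). The subset holds 5 of the 22 samples of the series, namely 2 whole-genome bisulphite libraries and 3 RNA-seq libraries, and every autosomal protein-coding gene was a candidate. Of 21,410 such genes in the mm9 annotation, 21,369 had a row in the count files, 20,309 had a measured promoter, 17,486 had a measured gene body and 17,112 had both. A promoter is the window of 1 kb to either side of the 5′-most annotated start of a protein-coding transcript, and a gene body runs from 2 kb past that start to the gene's end. Methylation is the percentage of reads over CpGs that stayed unconverted by bisulphite. Expression is the mean CPM (counts scaled to equal library totals) over 3 livers. Genes with a mean under 0.1 CPM were called silent and the others were split into 5 equal classes, from Q1 (lowest) to Q5 (highest).

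In mammals most CpGs outside regulatory regions carry 5-methylcytosine, whereas CpG islands, the CpG-dense stretches at the starts of housekeeping and many developmental genes, are usually free of it. Methylation of a CpG island start goes with stable silencing, as at genes reserved for the germ line, while Polycomb proteins hold many developmental regulators off without it. The transcribed part of an active gene is usually methylated, because DNMT3 enzymes are drawn to the chromatin that elongating polymerase leaves behind. The fetal liver at this stage is the main site of red cell formation, and its hepatoblasts share the organ with erythroblasts, macrophages, megakaryocytes, endothelium and other cells. Methylation measured in the whole organ is a mean over all of these cells.

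The study followed the loss of the zinc finger protein RLF. All mice were FVB/NJ of the Line3 colony, which is inbred and homozygous for a multi-copy GFP transgene driven by the human alpha-globin promoter and HS-40 enhancer, and the fetuses came from matings between carriers of an ENU-induced null allele of Rlf. The wild-type E14.5 livers were compared here with wild-type E10.5 embryos, wild-type E18.5 livers and E14.5 livers homozygous for that allele (Rlf MommeD28/MommeD28), each with 2 bisulphite libraries. Of the wild-type bisulphite livers, liver 1 was male and liver 2 female, so that sex and replicate cannot be told apart. In RNA-seq, livers 1 and 2 were male and liver 3 female, and no label ties an RNA library to the DNA of the same fetus. Both E10.5 embryos were male, both E18.5 livers female, and the mutants were again 1 male and 1 female. H3K4me1 ChIP-seq, mutant RNA-seq and the other bisulphite samples were not analysed here.

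The wild-type E14.5 bisulphite libraries held 697,227,249 and 687,391,092 reads over autosomal CpGs, or 36.1 and 35.7 reads per listed CpG. Of these reads 56.4% in liver 1 and 58.5% in liver 2 were methylated. Unmethylated lambda phage DNA read as 0.0590% and 0.0412% methylated in these libraries, which bounds failed conversion. In liver 1, promoter levels rested on a median of 2790 reads and 64 CpGs, with a median 95% Wilson interval of 0.993 points to either side. Here and in the totals above, a read was counted separately at each CpG it covers. The interval treats these counts as independent, so it may be too narrow. It covers counting error only. The livers' promoter levels correlated across genes with r = 0.995, 262 of 20,309 promoters differed by more than 10 points, and no promoter was under 20% in one liver and 60% or more in the other. The RNA-seq libraries held 13,438,331, 14,621,004 and 14,338,172 counts.

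The tissue label was checked with marker genes. Summed over 42 hepatoblast genes, RNA-seq gave 87,284, 81,849 and 90,275 CPM in livers 1 to 3, and over 38 erythroid genes 81,347, 52,599 and 68,990 CPM. The erythroid sum was lowest in liver 2. Neuronal markers summed to between 86.4 and 97.8 CPM and skeletal and cardiac muscle markers to between 12.2 and 63.1 CPM. None of the hepatoblast or erythroid genes was silent. In bulk samples, fewer cells of a type and less RNA per cell cannot be told apart.

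The 200 bases before the annotated start of 6 genes show the kinds of promoter that the results turn on. They are from the mm9 reference (C57BL/6J, whereas the mice were FVB/NJ), run 5′ to 3′ on the gene's strand, hold no annotated exon, and have each CpG in capitals. Trim28 (chr7:13609301-13609500, plus strand), which encodes a corepressor, is CpG-dense and active. Nkx2-1 (chr12:57637896-57638095, minus strand), a transcription factor of lung and thyroid, is CpG-dense and silent. Hormad1 (chr3:95363399-95363598, plus strand), a meiotic chromosome axis protein, is CpG-dense, silent and methylated. Ermap (chr4:118862617-118862816, minus strand) encodes a red cell membrane protein. Alb (chr5:90889715-90889914, plus strand) and Afp (chr5:90919540-90919739, plus strand), for albumin and alpha-fetoprotein, lie next to each other and have few CpGs.
Trim28: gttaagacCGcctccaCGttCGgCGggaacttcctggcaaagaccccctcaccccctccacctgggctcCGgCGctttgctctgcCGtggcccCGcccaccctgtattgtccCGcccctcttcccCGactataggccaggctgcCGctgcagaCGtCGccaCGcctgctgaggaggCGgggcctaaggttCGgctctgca
Nkx2-1: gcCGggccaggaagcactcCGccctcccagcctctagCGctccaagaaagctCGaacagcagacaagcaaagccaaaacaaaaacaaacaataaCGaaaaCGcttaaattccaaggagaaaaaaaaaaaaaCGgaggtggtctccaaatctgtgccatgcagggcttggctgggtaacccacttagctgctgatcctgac
Hormad1: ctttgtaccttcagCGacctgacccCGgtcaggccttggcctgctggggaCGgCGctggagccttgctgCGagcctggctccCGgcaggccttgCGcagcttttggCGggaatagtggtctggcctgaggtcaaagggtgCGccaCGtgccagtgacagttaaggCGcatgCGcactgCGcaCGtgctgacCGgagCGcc
Ermap: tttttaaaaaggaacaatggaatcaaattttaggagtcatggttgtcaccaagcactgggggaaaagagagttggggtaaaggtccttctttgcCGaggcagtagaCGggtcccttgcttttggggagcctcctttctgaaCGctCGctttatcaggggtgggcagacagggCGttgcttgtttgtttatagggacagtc
Alb: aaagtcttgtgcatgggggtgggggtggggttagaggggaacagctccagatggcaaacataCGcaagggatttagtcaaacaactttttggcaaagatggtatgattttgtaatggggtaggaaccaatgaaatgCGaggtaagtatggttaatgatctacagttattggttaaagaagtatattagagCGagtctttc
Afp: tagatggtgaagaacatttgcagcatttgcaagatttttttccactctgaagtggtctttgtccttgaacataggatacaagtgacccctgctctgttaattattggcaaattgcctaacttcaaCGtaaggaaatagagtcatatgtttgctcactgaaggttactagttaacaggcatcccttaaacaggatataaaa

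Over these bases, the 16 CpGs of Trim28 ranged from 0 to 2.78% methylated in liver 1 and were all at 0 in liver 2. The 7 CpGs of Nkx2-1 ranged from 0 to 6.90% and from 0 to 7.41%. The 16 CpGs of Hormad1 ranged from 54.4 to 95% in liver 1 and from 59.5 to 97.6% in liver 2. So Trim28 and Nkx2-1 were alike in methylation although RNA-seq gave Trim28 375, 459 and 397 CPM in livers 1 to 3 and gave Nkx2-1 no count in any liver, and Hormad1, also without a count, was methylated at every one of these CpGs. The 5 CpGs of Ermap lay between 2.33 and 9.76% in liver 1 and between 6.67 and 15.9% in liver 2. In Alb, the most transcribed of the 6 per kb after Afp, the CpG 138 bases upstream of the start was at 78.1 and 70.7%, the one 64 bases upstream at 45.8 and 46.7%, and the one 10 bases upstream at 30% and 28.6%. The single CpG of Afp, 75 bases upstream, was at 50% and 54.5%.

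Across the genome, promoter methylation fell from class to class of expression. There were 6882 silent genes, 5163 of them without a count in any liver. The 5896 silent genes with a measured promoter had a mean promoter level of 47.7% ± 1.48 (SD, n = 2 livers). Q1, which spans 0.114 to 1.62 CPM, was at 28.9% ± 0.663. Q2 was at 18.6% ± 0.290, Q3 at 11.5% ± 0.0907 and Q4 at 8.56% ± 0.0298. Q5, which spans 75.4 to 29,816 CPM, was at 7.71% ± 0.0223. The step between every pair of neighbouring classes was larger than the SD between livers. Silent genes exceeded Q5 by 40.0 points, by 38.9 in liver 1 and 41.0 in liver 2. No test was run on this difference, since an exact test over 2 livers cannot pass the threshold and genes are not replicates.

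Levels spread widely within a class. A level under 20% was called low, one of 60% or more high, and the rest intermediate. In Q5, 90.8% of promoters were low and 3.25% high, while among silent genes 19.5% were low, 42.6% intermediate and 37.9% high. Read the other way, 9.27% of the 12,410 low promoters belonged to silent genes, against 56.3% of the 4468 intermediate ones and 65.1% of the 3431 high ones. The median silent promoter was at 55.6% and the median Q5 promoter at 2.37%. Across genes the rank correlation of promoter methylation with CPM was rho = -0.592 (-0.588 and -0.595 in livers 1 and 2). Over genes that were not silent it was -0.380.

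**Figure D1:**
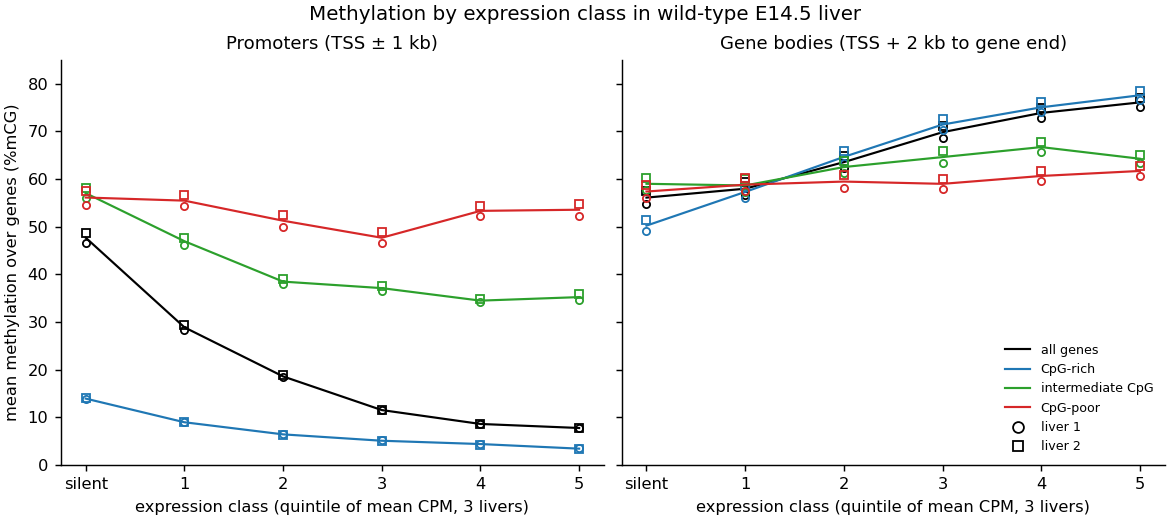
Methylation of promoters and gene bodies (percent of reads) by expression class, from silent genes to the top quintile, with a point for each of the 2 wild-type E14.5 livers, for all genes and by CpG content of the promoter. Promoter levels fall from 47.7 to 7.71% over all genes and only from 13.9 to 3.37% among CpG-rich promoters, while body levels rise from 56.1 to 76.1%.

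Levels and their dependence on expression differed by CpG content. A promoter was called CpG-rich if its window held a 500 bp stretch with at least 55% GC and an observed over expected CpG ratio of at least 0.6, CpG-poor if no such stretch reached a ratio of 0.4, and intermediate otherwise. CpG-rich promoters numbered 12,186, and their mean level fell from 13.9% ± 0.120 in silent genes to 3.37% ± 0.126 in Q5 (SD, n = 2). The 4504 CpG-poor promoters were at 56.1% ± 2.08 in silent genes and 53.6% ± 1.72 in Q5, and lowest in Q3 at 47.7% ± 1.65. The 3619 promoters of intermediate CpG content fell from 57.1% ± 1.40 to 35.2% ± 0.852. Within CpG-poor promoters silent genes were slightly above Q5 in both livers, at 54.7 against 52.3% and at 57.6 against 54.8%. Both classes were higher in liver 2. The SD of each class includes this shift and does not measure the spread of the difference between classes. Of silent genes with a measured promoter, 3005 of 5896 had a CpG-poor promoter, against 141 of 2892 in Q5, and the rank correlation was -0.284 within CpG-rich, -0.365 within intermediate and -0.0812 within CpG-poor promoters.

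The order of the classes at the start differed from that in the flanks. In the 200 bases before the start, CpGs of CpG-rich promoters were at 7.65% for silent genes, 3.43% for Q1, 2.24% for Q2, 0.524% for Q3, 0.401% for Q4 and 0.332% for Q5. Between 2.2 and 2.4 kb downstream silent genes were lowest, with 31.4% for silent genes, 43.3% for Q1 and 62.2% for Q5. Upstream the flank was alike in this, with 39.3% for silent genes and 63.1% for Q5 between 2.4 and 2.2 kb before the start, and 47.1 and 60.8% between 5.0 and 4.8 kb before it. Further into the gene, between 4.6 and 4.8 kb, the levels were 41.8% for silent genes and 72.9% for Q5. CpG-poor promoters had a shallower dip in the same 200 bases, to 52.3% for silent genes, 33.6% for Q3 and 45.3% for Q5, the last from 268 CpGs.

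**Figure D2:**
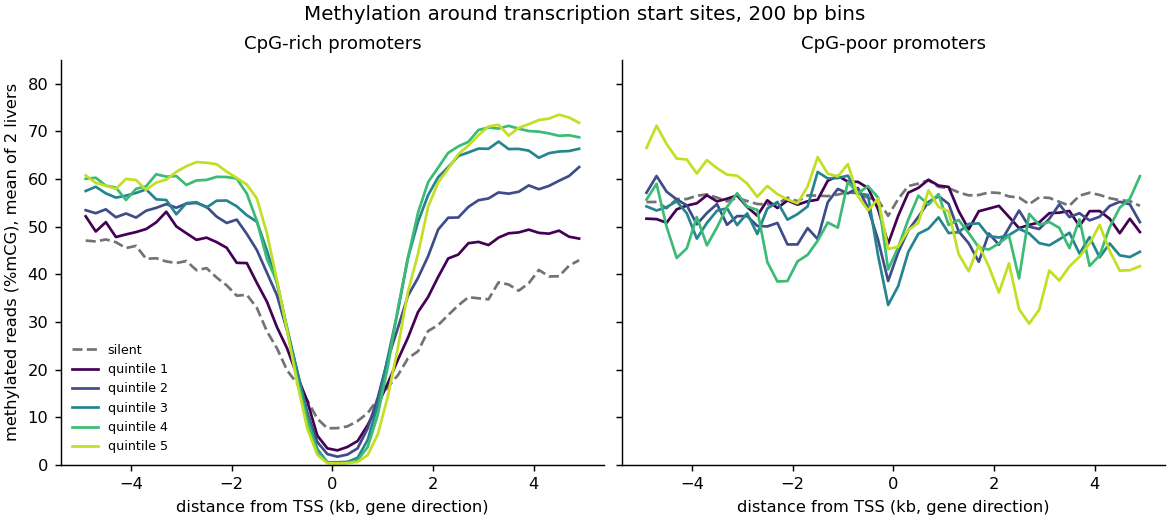
Mean methylation of CpGs (percent) in 200 bp bins by distance from the annotated start (kb), for CpG-rich and CpG-poor promoters, with a line per expression class and the mean of the 2 wild-type E14.5 livers. All classes of CpG-rich promoters dip at the start, and on both sides of it the line of Q5 rises above that of silent genes.

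Most housekeeping genes had unmethylated starts, as CpG-rich promoters did in general. Of 76 cytoplasmic ribosomal protein genes, 70 had a low promoter, with a median of 3.34%, and of 74 genes of the respiratory chain and ATP synthase 67 did, with a median of 3.98%. Over all genes 61.1% of promoters were low, with a median of 8.52%, and over CpG-rich promoters 95.6% were low. Within CpG-rich promoters 69 of 72 ribosomal and 66 of 67 respiratory ones were low, close to that share. Rpl4, for a protein of the large ribosomal subunit, was at 0.0571 and 0.0268% in livers 1 and 2, and Atp5b, for the catalytic beta subunit of ATP synthase, at 0.286 and 0.0410%. The high promoters, 4 in the first list and 5 in the second, belonged to genes with few counts, 2 and 4 of them silent. Rpl10l, a testis-expressed retrocopy, was at 78.4 and 81.7% with no count in any liver, and Cox8c, a testis form of a cytochrome c oxidase subunit, was at 68.2 and 72.5% with none either. Rps2, with 5.95, 6.02 and 5.93 CPM, is an exception in which the annotated start was at 63.0 and 66.5% while the gene body, which starts 2 kb further on, was at 1.75%. Ribosomal protein genes have near-identical pseudogenes, so that their counts are uncertain.

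Of 19 genes for the methylation machinery itself 16 were low, with a median of 3.44%, beside 61.1% of all promoters. CpG-rich promoters made up 16 of the 19, and 95.6% of all CpG-rich promoters were low. Dnmt1, the maintenance methyltransferase, was at 3.58 and 3.53%, and Uhrf1, which brings it to newly replicated DNA, at 3.26 and 2.80%. Expression was high in every liver, with 375.0, 392.5 and 372.9 CPM for the first and 289.8, 289.2 and 279.8 CPM for the second gene. The bodies of both genes were among the more methylated, at 86.3 and 86.4%. Tet1, which encodes an enzyme that oxidises 5-methylcytosine, differed in having a CpG-poor annotated start at 64.6 and 68.5%, with 5.73, 7.25 and 6.42 CPM.

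Many developmental transcription factors were silent without promoter methylation. Of 105 such genes, 100 had a low promoter, none had a high one and the median was 1.56%, although 63 were silent. Of those 63, 62 had a low promoter, against 19.5% of all silent genes with a measured promoter. Most of the list is CpG-rich, and among silent CpG-rich promoters 996 of 1214 were low over all genes and 58 of 58 in this list. The 40 Hox genes, which set position along the body axis, gave 37 low and none high, with a median of 2.62% and 23 silent. All 92 CpG-rich promoters of the first list and all 31 of the Hox list were low, beside 95.6% of all CpG-rich promoters. Among the promoters that were not low, Hoxb3 was at 45.7 and 45.2%, and Pax4, a factor of the endocrine pancreas with a CpG-poor promoter, at 39.5 and 45.1%. Of 23 neuronal genes 16 were low, a share near the 61.1% of all promoters. Of the 10 silent CpG-rich neuronal promoters 9 were low.

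The low methylation of these regulators did not end at the promoter. Their gene bodies had a median of 7.06% over 97 transcription factors and 7.37% over 36 Hox genes, against 66.5% over all genes. A body under 20% was found in 64 of the 97 transcription factors (66.0%) and in 33 of the 36 Hox genes (91.7%), but in 365 of all 17,486 genes (2.09%). Genes of these lists supplied 97 of the 365. These genes are short, with a median length of 7.45 kb for the transcription factors and 5.03 kb for the Hox genes against 22.0 kb for all. Bodies under 20% made up 9.09% of silent genes of up to 10 kb and 14.4% of silent genes with a CpG-rich promoter. Of the silent members, Nkx2-1 was at 1.53% over its body and T (Brachyury), a mesoderm regulator, at 59.6%. Gata4, Gata6 and Hand2, regulators of heart and gut development and the 3 members of the first list with the most counts, were at 26.9, 40.3 and 3.77%. Hand2 had 11.01, 14.29 and 14.02 CPM and Gata4 28.3, 33.4 and 34.2 CPM, so bodies of both kinds occurred in silent and in transcribed members.

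Germline genes were the reverse. Of 65 genes used in meiosis, in the germ cell genome defence or otherwise in germ cells, 37 had a high promoter and 7 a low one. Silent genes also numbered 37, and 25 genes were both silent and high. The contrast is sharpest within CpG-rich promoters, where 26 of 44 germline promoters (59.1%) were high against 165 of all 12,186 (1.35%). Of the 99 silent genes with a high CpG-rich promoter, 16 were on this list. Dpep3, a dipeptidase of the testis, was at 84.16 and 84.96% with no count in any liver. Ddx4, the VASA helicase of germ cells, was at 70.4 and 76.5% with 0.819, 0.274 and 0.349 CPM. Dazl, an RNA-binding protein needed for germ cell development, was lower, at 51.1 and 52.9%. The median of the 26 high CpG-rich members was 74.2%.

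Hepatoblast and erythroid genes, the most transcribed of the cell-type lists, had unlike promoters. Of 42 hepatoblast genes 12 had a low, 15 an intermediate and 15 a high promoter, and the median was 54.5%. Of 35 erythroid genes with a measured promoter 23 were low, 8 intermediate and 4 high, and the median was 4.397%. In Q5 stood 31 and 34 genes of these lists. Of the hepatoblast promoters 13 were CpG-rich and 11 of these low, while 18 erythroid promoters were CpG-rich and all of these low, beside 95.6% of all CpG-rich promoters. CpG-poor promoters numbered 15 among hepatoblast genes, with a median of 58.9%, and 9 among erythroid genes, with a median of 36.7%. Promoters of intermediate CpG content had medians of 61.3% over 14 hepatoblast and 17.1% over 8 erythroid genes. The lists were chosen with these data known, and no test was made between them.

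Among hepatoblast genes, Alb stood at 57.8 and 61.2% in livers 1 and 2 with 27,682, 24,141 and 28,094 CPM, and Afp at 64.5 and 69.4% with 29,106, 28,097 and 32,246 CPM. Serpinc1, for antithrombin, had the highest promoter of the list, at 75.5 and 77.6%. Hnf4a, a nuclear receptor at the head of the hepatocyte programme, was at 55.1 and 55.2% with 221, 266 and 237 CPM. Foxa1 and Dlk1, a surface protein of hepatoblasts, were at the other end, at 0.347 and 0.222% and at 2.49 and 3.03%.

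Among erythroid genes, Klf1 and Nfe2, transcription factors of red cell genes, were at 2.05 and 1.80% and at 0.833 and 0.304%. Car2 and Tfrc, for carbonic anhydrase and the transferrin receptor, were at 0.574 and 0.676% and at 0.617 and 0.614%. The adult beta-globin gene Hbb-b1 was at 37.9 and 35.5% with 26,928, 12,709 and 21,530 CPM, and Slc4a1, for the band 3 anion exchanger, at 30.01 and 34.01%. The embryonic globin Hbb-y was at 85.3 and 84.1% with 970, 1334 and 998 CPM. Adult globins such as Hbb-b1 have near-identical copies, so that their counts and bisulphite reads are uncertain. Hemgn, a nuclear protein of blood precursors, had an annotated start at 81.9 and 81.0% but a further start 9.27 kb away at 25.1%.

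Genes of the less abundant cells differed from list to list, beside 22.0% of all promoters and 62.1% of CpG-poor ones that were intermediate. None of 20 macrophage genes was low and 16 were intermediate, with a median of 50.1%, and of 13 neutrophil genes none was low and 7 were intermediate, with a median of 59.8%. Of 13 megakaryocyte genes 8 and of 19 endothelial genes 13 were intermediate. Of 19 mesenchymal genes 10 were low and 9 intermediate, with a median of 12.9%. Of genes listed for hepatocytes near or after birth 20 of 21 were intermediate or high, with a median of 56.4%. However, 17 of the list are CpG-poor, and 56 of all 4504 CpG-poor promoters were low. Of the 24 genes on the list 7 were silent at E14.5 and 3 in Q5, and the median was 0.655 CPM, within the range of Q1. Serpina6, its most expressed member, had 3737, 3594 and 3791 CPM. Cyp7a1, the rate-limiting enzyme of bile acid synthesis, was at 56.0 and 61.7%, close to Alb. The promoters of the 930 measured olfactory receptor genes, nearly all silent, had a median of 59.1%.

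**Figure D3:**
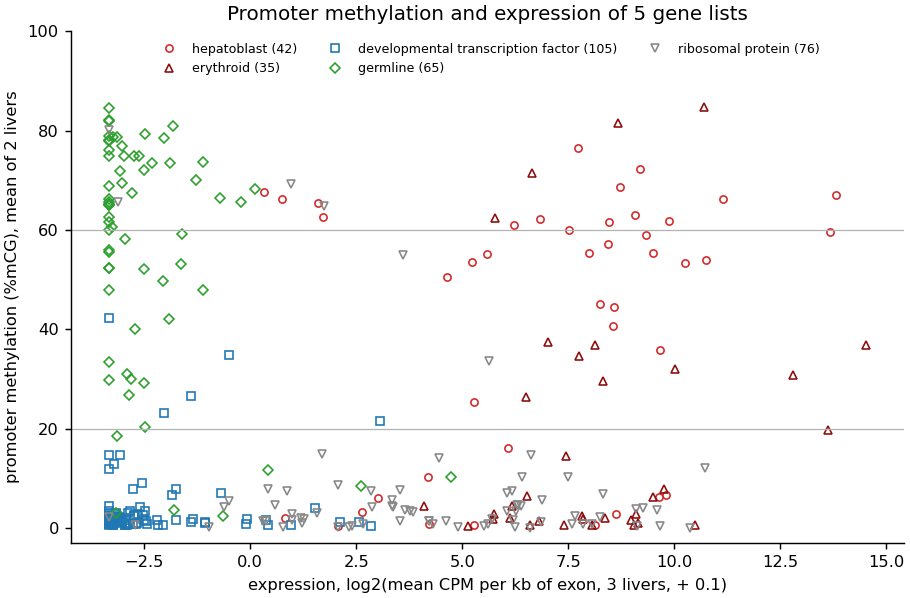
Promoter methylation (percent, mean of the 2 wild-type E14.5 livers) against expression, as log2(mean CPM per kb of exon + 0.1), with a point per gene. The lists shown are hepatoblast, erythroid, developmental transcription factor, germline and ribosomal protein genes, the last in grey. Alb and Afp stand at the right with levels of 59.5 and 66.9%, most erythroid genes lie near the bottom, and silent transcription factors and germline genes share the left edge at opposite heights.

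Some active genes had a methylated annotated start. In Q4 and Q5 together 197 of 5786 promoters (3.40%) were high, 105 of them CpG-poor and 9 CpG-rich. Of the 197, 93 have a further protein-coding start more than 2 kb away, and in 74 of these 93 such a start was under 20%. Ctnnb1, for beta-catenin, was at 75.6 and 78.2% at its 5′-most start and at 1.25% at a start 4.602 kb away. Igf2, a fetal growth factor, was at 59.4 and 64.3% and had a start 7.33 kb away at 0.966%. The remaining 104 had all starts within 2 kb. Afp, Apoa2, Serpinc1 and Plg, for plasma proteins made by the liver, were among these 104, as was Hbb-y. Of the 94 genes of Q5 with a high promoter, 11 were on the hepatoblast list and 3 on the erythroid list.

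Imprinted genes, of which 1 parental copy is methylated at a control region, stood out by intermediate levels. Among CpG-rich promoters, 13 of 32 imprinted ones (40.6%) were intermediate against 3.07% of all, and none was high. Peg3 was at 35.3 and 41.7%, Plagl1 at 38.4 and 43.1% and Gnas at 42.4 and 44.3%, with 359.6, 410.4 and 420.0 CPM for the first of these. Igf2r, the receptor that clears IGF2, was at 32.5 and 32.2%. The reads were not assigned to parents.

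Gene body methylation rose with expression. The mean body level was 56.1% ± 1.88 in silent genes, 58.0% ± 1.86 in Q1, 63.6% ± 1.86 in Q2, 69.9% ± 1.71 in Q3, 73.9% ± 1.52 in Q4 and 76.1% ± 1.29 in Q5 (SD, n = 2). The livers differed in overall level, with liver 1 lower by 2.40 points on average, so the SD of each class is mostly this shift. Within each liver the steps were all upward. Q5 exceeded silent genes by 20.4 points in liver 1 and 19.6 in liver 2. Bodies of 80% or more made up 45.0% of Q5 and 0.825% of silent genes. Across genes rho with CPM was 0.617, and 0.558 over genes that were not silent.

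From silent genes to Q5 the rise was largest in genes with CpG-rich promoters, from 50.2 to 77.6%. It was smaller with intermediate, from 59.0 to 64.3%, and CpG-poor promoters, from 57.4 to 61.7%, and in neither was it steady. Bodies with intermediate promoters were highest in Q4, at 66.7%, and those with CpG-poor promoters were at 59.5% in Q2 and 59.0% in Q3. Within CpG-rich, intermediate and CpG-poor promoters, rho of body methylation with CPM was 0.626, 0.218 and 0.158. The rise was present in short and long genes. In genes of up to 10 kb the median body level was 58.7% in silent genes and 79.5% in Q5, in those of 10 to 50 kb it was 59.6 and 79.8%, and in longer genes 59.5 and 77.9%. Trim28, at 0.112 and 0.0129% over its promoter, was at 84.6% over its body. The liver-specific genes were lower, with 61.0% for Alb and 54.1% for Afp, and the median body was 62.7% in hepatoblast and 72.7% in erythroid genes. Erythroid genes spread from Tal1, a regulator of blood formation, at 18.9% to Ppox, an enzyme of haem synthesis, at 88.3%.

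Against E10.5 embryos, promoter methylation of the E14.5 liver was lower at many promoters and higher at few. The 4 libraries were compared over the same CpGs, so a difference need not equal the gap between the levels printed for each tissue. Calls required more than 15 points of difference and p under 0.05 after Benjamini-Hochberg adjustment (edgeR quasi-likelihood test), which 4693 of 19,506 promoters (24.1%) met. Of these, 4601 (23.6%) were lower and 92 (0.472%) higher in liver. The mean over promoters was 22.9 and 23.7% in the livers against 29.3 and 29.7% in the embryos. Over all autosomal CpGs the livers were at 56.4 and 58.5% and the embryos at 70.6 and 72.0%. The embryo libraries were shallower, at 19.4 and 18.2 reads per CpG. Stage and tissue cannot be told apart, since embryos were whole. The p-values weigh a difference against the spread between these samples, estimated with information shared over all promoters.

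The share of promoters that fell was 57.2% in silent genes, 23.5% in Q1 and 5.38% in Q5, and 77.9% among CpG-poor, 44.0% among intermediate and 0.756% among CpG-rich promoters. A promoter under 15% in the embryo cannot fall by that much, and the median embryo level was 78.8% in silent genes, 13.8% in Q1 and 2.13% in Q5. Among promoters at 60% or more in the embryo, a choice by the embryo level that itself favours falls, the share was 80.1% in silent genes, 65.0% in Q1 and 70.6% in Q5. By list, 25 of 42 hepatoblast, 18 of 20 macrophage, 11 of 13 neutrophil, 14 of 19 endothelial, 9 of 13 megakaryocyte and 10 of 33 erythroid promoters fell, beside 23.6% of all promoters. The median embryo level was 75.4% for the hepatoblast and 8.61% for the erythroid list. At 60% or more in the embryo, 25 of 27 hepatoblast, 18 of 19 macrophage, 13 of 13 endothelial, 7 of 8 megakaryocyte and 8 of 11 erythroid promoters fell, beside 75.7% of all such promoters. Of 17 mesenchymal promoters 1 fell, from a median embryo level of 8.61% over the list, and their median difference was 0.469 points. Of other lists, 16 of 19 promoters of genes of the later liver, 9 of 21 of muscle genes and 74 of 87 of keratin cluster genes fell. At 60% or more in the embryo the counts of these 3 lists were 16 of 17, 8 of 15 and 72 of 77. Of the 24 genes listed for the later liver, 7 were silent at E14.5. Of the macrophage promoters 16 of 20 were CpG-poor. Among olfactory receptor promoters 646 of 674 fell, and 643 of the 669 at 60% or more in the embryo. So a fall was not limited to genes used in the liver, also at a matched embryo level.

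Single promoters of these lists fell by unlike amounts. Ermap, at 74.8 and 70.4% in embryos and 14.7 and 14.2% in livers, fell by 58.1 points (adjusted p = 9.7e-21). Hbb-b1 went from 90.7 and 81.7% to 37.9 and 35.5% (adjusted p = 6.09e-11). Pf4, platelet factor 4 of megakaryocytes, fell by 66.9 points (adjusted p = 4.19e-22), and Pecam1, an adhesion protein of endothelium and platelets, by 61.3 points (adjusted p = 2.11e-20). Alb fell by 22.5 points (adjusted p = 8.58e-05) and Afp by 24.3 points (adjusted p = 3.35e-09). These 2 falls were near the median difference of all promoters at 60% or more in the embryo, -20.7 points. Hbb-y and Hemgn, at 86.8 and 86.6% and at 81.4 and 83.5% in embryos, differed by -2.83 (adjusted p = 0.415) and -0.99 points (adjusted p = 0.733).

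The largest falls over all genes included Fermt3, an integrin activator of blood cells, by 67.5 points, Dock2, a signalling protein of leukocytes, by 67.1 points, and Mmrn1, a protein stored in platelets and endothelium, by 66.0 points. Fermt3 had 201, 227 and 208 CPM in the E14.5 livers and Mmrn1 had 23.7, 28.9 and 27.1 CPM. Expression in the embryos was not analysed here.

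**Figure D4:**
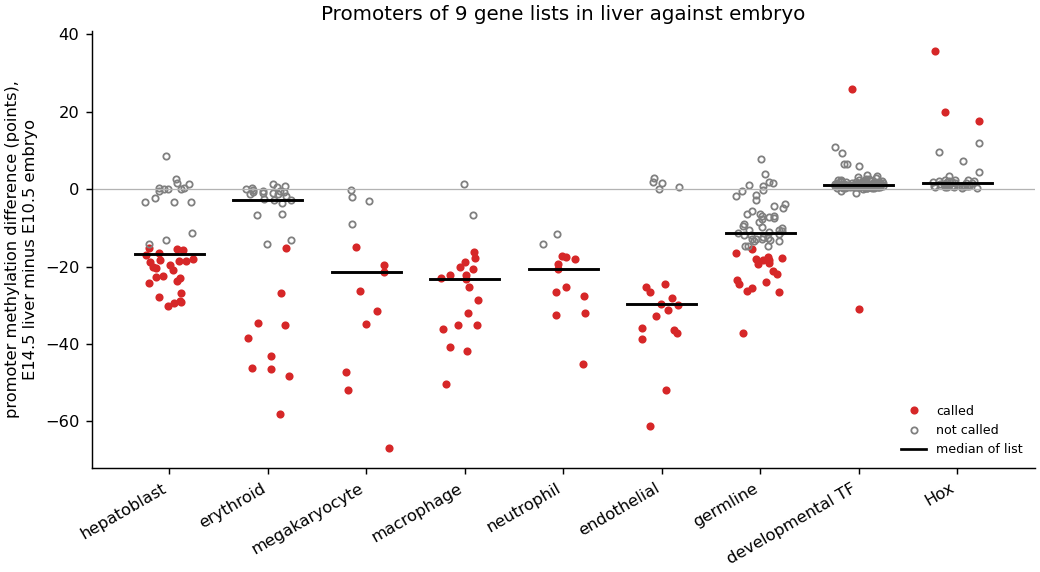
Promoter methylation difference (points), wild-type E14.5 liver minus wild-type E10.5 embryo (means of 2 libraries each), with a point per promoter and a column per gene list. Called promoters are filled red, those not called are open grey, and a bar marks the median of each list. The median difference was -16.7 points for hepatoblast, -2.83 points for erythroid and 1.11 points for developmental transcription factor promoters.

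The 92 promoters that were higher in liver had a median of 23.8% in embryos and 49.4% in livers. Among them 31 were silent, 6 were in Q5 and 20 were CpG-rich. Of all 19,506 promoters tested, 5205 were silent, 2883 were in Q5 and 12,175 were CpG-rich. Cyp26c1, an enzyme that degrades retinoic acid, was at 5.65 and 3.61% in embryos and 71.0 and 71.8% in livers, a rise of 66.7 points (adjusted p = 1.37e-23). Scx, a transcription factor of tendon, rose by 52.7 points (adjusted p = 4.37e-20). Hoxb3, Hoxb4 and Hoxd4 rose by 35.7, 17.6 and 19.9 points, and Gbx2, a regulator of the hindbrain border, by 25.8 points. Igf2r rose from 16.0 and 15.8% to 32.5 and 32.2% (adjusted p = 2.85e-06).

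Smaller rises were common among the unmethylated regulators. With the size limit left out, a choice made after seeing the data, 92 of 105 developmental transcription factors and 36 of 40 Hox genes were higher in liver at an adjusted p under 0.05 (edgeR), beside 17.7% of all promoters, while 40.9% of all were lower. The median over the transcription factors was 0.344% in embryos and 1.56% in livers, and both livers lay above both embryos in 99 of the 105, against 34.3% of all promoters. That share was 59.4% over CpG-rich promoters under 5% in the embryo and 85.5% over the silent ones among these, sets whose choice by a low embryo level favours rises. For Hox genes the medians were 0.818 and 2.62%. The unconverted share of lambda DNA was 0.0583 and 0.0544% in the embryos against 0.0590 and 0.0412% in the livers, and its part in these rises was not tested. In E18.5 livers the transcription factors had a median of 1.39% and both libraries lay above both embryos in 99 of the 105, against 4642 of all 19,506 promoters.

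Between E14.5 and E18.5 liver few promoters differed. Of 19,738 promoters 131 (0.664%) were called, 125 lower (0.633%) and 6 higher (0.0304%) at E14.5. The count rests on the livers used. Without E14.5 liver 1 it was 32, without liver 2 it was 238, and limma on log2 ratios called 2. None of the 42 hepatoblast promoters was called, and their median difference was 0.165 points. Of 33 erythroid promoters 2 were called, namely Ermap, at 35.5 and 33.9% in E18.5 livers and lower by 20.2 points at E14.5 (adjusted p = 7.54e-08), and Epb4.2, for the membrane protein 4.2, lower by 16.2 points (adjusted p = 0.00214). Itga2b, the integrin of platelets, was lower by 19.7 points (adjusted p = 3.18e-05). With limma none of these 3 was called (adjusted p = 0.0789 for Ermap, 0.124 for Epb4.2 and 0.101 for Itga2b), and without E14.5 liver 1 the call of Epb4.2 was lost (-12.2 points, edgeR adjusted p = 0.114). Hbb-b1, at 49.7 and 53.6% in E18.5 livers, differed by -14.9 points (adjusted p = 0.0274), just under the size limit. Agap2, for a GTPase-activating protein, was at 5.49 and 7.17% at E14.5 and 28.3 and 28.3% at E18.5. Between these stages blood formation leaves the liver and hepatocytes come to make up most of it. Cell shares were not analysed here, and both E18.5 fetuses were female.

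The gradient from silent to active promoters was also present in Rlf MommeD28/MommeD28 livers. The mean of the silent class was 46.6 and 48.7% in wild-type and 50.2 and 49.2% in mutant livers, a difference of 2.05 points, and that of Q5 was 7.70 and 7.73% against 8.20 and 7.95%, a difference of 0.366 points. Leaving out wild-type liver 1 or 2 moved the difference of the silent class to 1.004 or 3.091 points, and leaving out mutant liver 1 that of Q5 to 0.238 points. Over all promoters the difference was 1.16 points, and 0.751 points without wild-type liver 1. Mutant livers lay above wild-type livers in each class, with an exact two-sided permutation p of 0.333 in each, the smallest that 2 against 2 livers allow. The study describes these livers as littermates, and no label says which shared a litter. Expression classes were those of the wild-type livers.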

How the data were processed

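Per the labels and the study's methods, the authors prepared bisulphite libraries from whole livers or embryos, aligned reads with Bismark and Bowtie2 to mm9 carrying FVB/NJ substitutions, removed PCR duplicates and merged strands, and deposited unnormalised counts of converted and unconverted reads per CpG for each library. For RNA-seq (polyA-selected, unstranded) the authors aligned with TopHat and deposited HTSeq counts per Ensembl gene, so that overlapping genes cannot be told apart.

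Here CpGs needed at least 6 reads in each library compared and windows at least 5 such CpGs. Gene models were GENCODE's on NCBIM37 (mm9), of an earlier Ensembl release than the authors'. CPM used the total of all gene counts. Levels are unconverted over all reads per window, averaged over genes within a class. Windows were tested between groups with edgeR's quasi-likelihood test on methylated and unmethylated counts with an intercept per library, with Benjamini-Hochberg adjustment over all windows tested; class means were tested with exact permutation tests over livers. The scripts were tested on simulated data. Same-numbered samples did not deviate together (r = -0.0360 with embryos, 0.0201 with E18.5 livers and -0.0510 with mutant livers), and replicate numbers were not taken to pair samples. The study describes the wild-type and mutant E14.5 bisulphite livers as littermates. The edgeR p-values weigh a difference against the spread between the samples used, estimated with information shared over all windows.

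The members and gene lists were chosen with earlier results of these data known. The rule for named genes took, per list, the 3 members with most counts and those with the lowest and highest promoter, the 10 most expressed genes with a promoter of 60% or more in both livers, and the 5 largest falls and rises of each comparison. Other list members, and the 6 genes with sequences, were chosen after their values were seen. Alternatives were other coverage minimums, windows, scalings, start choices, thresholds, limma, a replicate block and leaving out libraries. Versions were R 4.3.3, edgeR 4.0.16, limma 3.58.1, DESeq2 1.42.0 (size factors only), Python 3.11.15, numpy 2.4.6, pandas 2.3.3, scipy 1.17.1, pysam 0.24.0 and matplotlib 3.10.9.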

Additional observations from a re-analysis of the deposited data

How the results depend on the processing

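The gap of 40.0 points between silent and Q5 promoters became 38.3 with CPM per kb of exon, 42.7 over genes with all starts within 500 bp, 43.9 with silence defined as 0 counts and 37.7 with reads pooled over a class, and ranged from 38.9 to 41.0 with 1 library left out. The body gap, 20.4 and 19.6 points in livers 1 and 2, became 19.4, 21.7 and 16.9 with CPM per kb, close starts and pooled reads, and ranged from 19.6 to 20.4. The promoter rank correlation of -0.592 became -0.582 at 15 reads per CpG, -0.553 with CPM per kb, -0.632 with close starts, -0.618 within 500 bp of the start and -0.380 without silent genes, ranging from -0.595 to -0.587 with 1 library left out. That of bodies, 0.615 as the mean of the livers' values, became 0.668 with close starts and 0.557 without silent genes, ranging from 0.609 to 0.621. TMM scaling and DESeq2 size factors moved each of these 4 by less than the spread between livers. Against embryos, the 4693 calls became 1822 above 25 points and 11,447 at any size, and ranged from 4378 to 4905 with 1 library left out. At any size, the 92 transcription factors and 36 Hox genes that were higher became 91 and 35 with limma. Against E18.5 livers, the 131 calls became 2 with limma, 0 above 25 points, 30 within 500 bp of the start and 2015 at any size, a choice made after seeing the data, and ranged from 32 (without E14.5 liver 1) to 238 (without liver 2). A replicate block gave 4693 and 139 calls, so it changed neither count by over 1.5 times. For the class means of mutant and wild-type livers a block leaves the difference the same by construction, so it is no check there. Those differences, 2.05 points (silent) and 0.366 points (Q5), ranged from 1.004 to 3.091 and from 0.238 to 0.493 with 1 library left out. The causes of these changes were not tested. The E18.5 libraries had 18.1 and 17.8 and the embryo libraries 19.4 and 18.2 reads per CpG, against 36.1 and 35.7 in the E14.5 livers.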
